A study of Mus musculus with 2 samples.

Results

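The genes described here are the isozymes of glycolysis and gluconeogenesis, a list of 40 mouse genes that were found by stable identifier among the 43346 mouse genes of the gene table. All 40 were present in the gene and transcript tables, with 239 transcripts. The RNA came from kidneys of B6NCrl mouse embryos of both sexes at 16.5 days of development. The samples form 1 group of 2 biological replicates, each a pool of embryos with 1 total RNA-seq library, and the labels name no treatment, second tissue or second age. The pool of replicate 2 held 41 embryos, and no source used here gives the size of the other pool. The questions that the design allows are therefore which isozyme carries each step in this tissue and how far the 2 pools differ. An exact two-sided test over 2 libraries cannot give a p below 0.5, so values per library stand in place of p-values.

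Glycolysis splits glucose into pyruvate and yields ATP and NADH in the cytosol. Gluconeogenesis runs the reversible steps backwards and goes around the irreversible ones with its own enzymes: pyruvate carboxylase and PEP carboxykinase, fructose bisphosphatase and glucose-6-phosphatase. Most steps have several isozymes, encoded by separate genes with different tissue distributions. In the adult body the liver and the kidney release glucose, and in the kidney the gluconeogenic enzymes belong to the proximal tubule.

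Levels are given in TPM, a length-scaled share of all transcripts in a library, which lets different genes be set side by side, and pairs of values are for replicate 1 and replicate 2. Expected counts on mouse genes summed to 34261328 in replicate 1 and 37900132 in replicate 2. Values after ± are the SD of the 2 libraries. In bulk RNA, fewer cells of a type and less RNA per cell cannot be told apart. All 8 proximal tubule markers were at 1 TPM or more in both libraries and summed to 411.6 and 476.3 TPM, so the defining genes of the segment that makes glucose were present. Markers of other tissues were present too, though not all reached 1 TPM in both libraries. Those that did were 6 of 8 erythroid, 6 of 7 skeletal muscle and 6 of 6 liver genes. For neurons and glia they were 4 of 6, for myeloid cells 5 of 6 and for neutrophils 2 of 4. The summed level was 14534 and 13756 TPM for 8 erythroid genes, 100.4 and 199.8 TPM for 7 skeletal muscle genes and 150.1 and 184.3 TPM for 6 liver genes. It was 41.1 and 26.3 TPM for 6 genes of neurons and glia, 97.0 and 98.8 TPM for 6 myeloid genes and 24.0 and 39.2 TPM for 4 neutrophil genes. No gene of these lists stood at 0 in both libraries.

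The members were abundant messages with a wide span. They summed to 10471 TPM in replicate 1 and 11241 TPM in replicate 2, which was 1.12% and 1.18% of all mouse gene TPM. The median member stood at 40.4 and 38.6 TPM, against 5.43 and 5.46 TPM for protein-coding genes. At 1 TPM or more in both libraries, 39 of the 40 members were detected, against 62.2% of protein-coding genes and 34.7% of all mouse genes. The exception was Hk3. Gapdh, Eno1, Ldha and Pkm exceeded 1000 TPM in both libraries, 9 members lay between 100 and 1000 TPM, 17 between 10 and 100 TPM and 8 under 10 TPM. Pfkfb3 and Eno2 lay on both sides of 10 TPM.

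**Figure D1:**
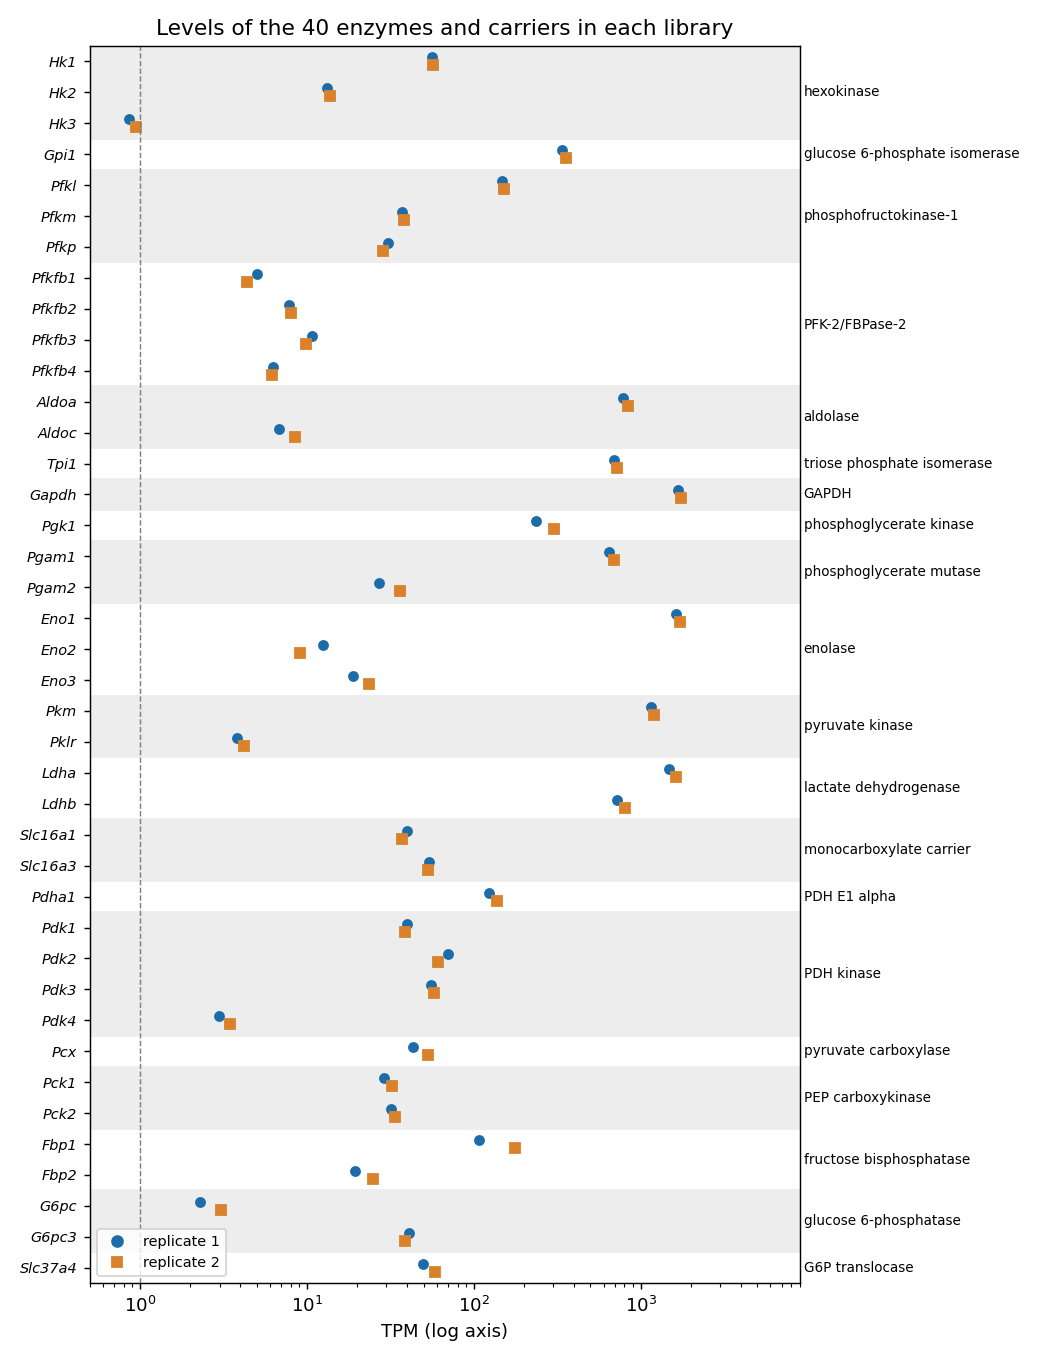
TPM on a log axis for each of the 40 members, grouped by reaction step, with a circle for replicate 1 and a square for replicate 2. The dashed line marks 1 TPM. Gapdh, Eno1, Ldha and Pkm lie above 1000 TPM, and Hk3 alone lies left of the line.

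Pyruvate kinase makes pyruvate and ATP from phosphoenolpyruvate, and almost all of its message came from Pkm in the M2 form. Pkm makes 2 isoforms by including either exon 9 (M1, the form of adult muscle and brain) or exon 10 (M2, the form of embryonic and proliferating cells and of the adult kidney). The exons are equally long, 167 bases each, lie next to each other on the plus strand of chromosome 9 (GRCm38) and are mutually exclusive. They are shown because the choice between them defines the isoforms. In GENCODE M21 the models of the 2 transcripts also differ at their outer ends. Exon 9 spans chr9:59675029-59675195 and exon 10 spans chr9:59675568-59675734, as read from GENCODE M21 transcripts. Capitals mark the 64 positions at which the exons differ, and the exons are 61.7% identical.
Pkm exon 9 (M1): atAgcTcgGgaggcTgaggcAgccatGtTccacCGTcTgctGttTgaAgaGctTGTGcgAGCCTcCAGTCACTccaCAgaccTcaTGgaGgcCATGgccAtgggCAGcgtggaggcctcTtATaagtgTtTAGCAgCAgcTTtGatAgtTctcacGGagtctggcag
Pkm exon 10 (M2): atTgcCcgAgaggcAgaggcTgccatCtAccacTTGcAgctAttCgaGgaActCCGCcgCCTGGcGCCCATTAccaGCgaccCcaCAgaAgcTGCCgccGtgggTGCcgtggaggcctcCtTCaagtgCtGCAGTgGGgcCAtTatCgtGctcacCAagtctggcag

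The M2 transcript, Pkm-201, stood at 1102 TPM in replicate 1 and 1138 TPM in replicate 2. The M1 transcript, Pkm-202, stood at 52.6 TPM in replicate 1 and 59.8 TPM in replicate 2. M2 therefore took 95.4% and 95.01% of Pkm TPM (95.2 ± 0.305, n = 2), with an M2 to M1 ratio of 20.9 and 19.1. The deposited bounds were far apart: for M2 they ran from 1064 to 1084 TPM in replicate 1 and from 1103 to 1122 TPM in replicate 2, and for M1 from 46.4 to 56.8 TPM and from 53.2 to 63.7 TPM. The point values of M2 lie above their own bounds in both libraries, so these bounds are not symmetric errors of the TPM. Both transcripts are 2432 bases long in the deposited table, which holds no other Pkm transcript. The summed skeletal muscle markers, like both M1 and M2, were lower in replicate 1, at 100.4 TPM in replicate 1 and 199.8 TPM in replicate 2. Most of that difference was Acta1, and the other 6 summed to 52.1 and 61.2 TPM, with Mylpf higher in replicate 1 (22.4 and 21.2 TPM). Their part in the M1 level was not tested. Pklr, the pyruvate kinase of liver and red cells that also marks adult proximal tubules, stood at 3.82 and 4.18 TPM, with deposited bounds in replicate 2 from 3.20 to 6.21 TPM. Pkm was higher by 8.17 ± 0.05 on the log2 scale and took 99.7% of the step in both libraries. Pklr has an upstream start, used in red cells, and a downstream start, used in liver. Transcripts from the downstream start took 94.5% of Pklr TPM in replicate 1 and 84.0% in replicate 2, on 169 and 201 expected counts for the whole gene. The deposited bounds of the main upstream and downstream transcripts, Pklr-201 and Pklr-202, overlapped in both libraries.

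**Figure D2:**
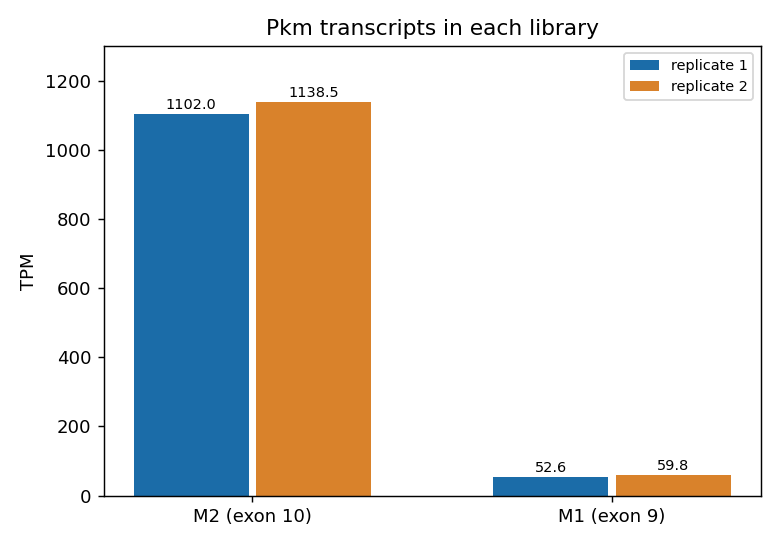
TPM of the Pkm transcripts with exon 10 (M2) and with exon 9 (M1) in each library, as bars from 0. M2 is at 1102 and 1138 TPM, while M1 is at 52.6 and 59.8 TPM.

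The hexokinase step was led by a broadly expressed isozyme. Hexokinase traps glucose in the cell as glucose 6-phosphate. Hk1, the form with the broadest expression, stood at 55.9 TPM in replicate 1 and 56.8 TPM in replicate 2, which was 79.8% and 79.5% of the step. Hk2, the form of muscle and fat that responds to insulin, stood at 13.3 and 13.7 TPM. The hexokinase of blood cells, Hk3, stood at 0.86 and 0.95 TPM on 56 and 69 expected counts, with deposited bounds in replicate 2 from 0.951 to 1.97 TPM. The order Hk1, Hk2, Hk3 held in both libraries, with a log2 ratio of Hk1 over Hk2 of 2.06 ± 0.01. The 6 myeloid markers were present at a sum of 97.0 and 98.8 TPM, and their part in the Hk3 level was not tested. Much of the Hk2 level rests on 1 short model: Hk2-202, a non-coding transcript of 594 bases, took 57.2% and 60.1% of Hk2 TPM on 86.5 and 101 expected counts. The coding transcript Hk2-201 took 702 and 736 expected counts and stood at 5.65 and 5.45 TPM. With coding transcripts alone the log2 ratio of Hk1 over Hk2 was 3.31 ± 0.06.

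Glucose 6-phosphate isomerase, encoded by Gpi1, stood at 337 and 356 TPM. Phosphofructokinase then commits the sugar to glycolysis. Pfkl, the liver-type subunit, stood at 148 TPM in replicate 1 and 152 TPM in replicate 2, or 68.5% and 69.5% of the step. Pfkm, the muscle-type subunit, stood at 37.3 and 38.0 TPM, and Pfkp, the platelet-type subunit, at 30.8 and 28.6 TPM. Pfkl was higher than Pfkm by 1.99 ± 0.005 and than Pfkp by 2.34 ± 0.10 on the log2 scale. Pfkm and Pfkp did not overlap in TPM, but their deposited bounds did. The PFKFB enzymes set the level of fructose 2,6-bisphosphate, the activator of phosphofructokinase, and no single one of them dominated. Pfkfb3, the form with the highest kinase relative to phosphatase activity, stood at 10.7 and 9.85 TPM, or 35.9% and 34.6% of the family. Pfkfb2, known from heart, followed with 7.79 and 8.06 TPM, Pfkfb4, known from testis, with 6.24 and 6.16 TPM, and Pfkfb1, known from liver and muscle, with 5.02 and 4.39 TPM. The deposited bounds of Pfkfb4 and Pfkfb1 overlapped. Pfkfb2 and Pfkfb4 changed places when coding transcripts alone were counted, at 3.79 and 5.41 TPM for Pfkfb2 and 6.24 and 6.16 TPM for Pfkfb4.

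The middle of the pathway was carried by 1 isozyme at each step among the members. Aldolase cleaves the hexose bisphosphate. Aldoa, the form of muscle and most embryonic tissues, stood at 790 and 837 TPM, and Aldoc, the form of brain, at 6.76 and 8.53 TPM, so that Aldoa took 99.2% and 99.0% of their sum. Phosphoglycerate mutase was led by Pgam1, the non-muscle form, with 645 and 690 TPM, or 96.0% and 95.05% of the step. Pgam2, the muscle form, stood at 27.0 and 35.9 TPM. Among the enolases, Eno1 took 98.1% of the step in both libraries at 1637 and 1724 TPM. Eno3, the muscle form, stood at 18.9 and 23.5 TPM, and Eno2, the form of neurons, at 12.5 and 9.11 TPM. Eno3 was higher than Eno2 in both libraries, but the ratio varied the most of all pairs between the libraries: 0.98 ± 0.54 on the log2 scale. The leading Eno2 model is a retained-intron transcript with 32.2% and 31.95% of Eno2 TPM, and non-coding models together took 58.7% and 56.4% of it. With coding transcripts alone the log2 ratio of Eno3 over Eno2 was 2.20 ± 0.48.

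The steps with 1 member were high as well. Tpi1, triose phosphate isomerase, stood at 696 and 727 TPM, and Pgk1, phosphoglycerate kinase, at 237 and 304 TPM. Gapdh, glyceraldehyde phosphate dehydrogenase, had the highest TPM of all members, 1682 and 1759, and ranked 27 and 28 among the protein-coding genes. Its place depends on a short model: Gapdh-208, a non-coding transcript of 483 bases, held 864 and 865 TPM on 7618 and 8285 expected counts. The leading coding transcript of Gapdh, of 1420 bases, held 690 and 769 TPM on 20943 and 25331 expected counts. With coding transcripts alone Gapdh stood at 794 and 875 TPM, below Eno1, which then stood at 1580 and 1669 TPM.

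**Figure D3:**
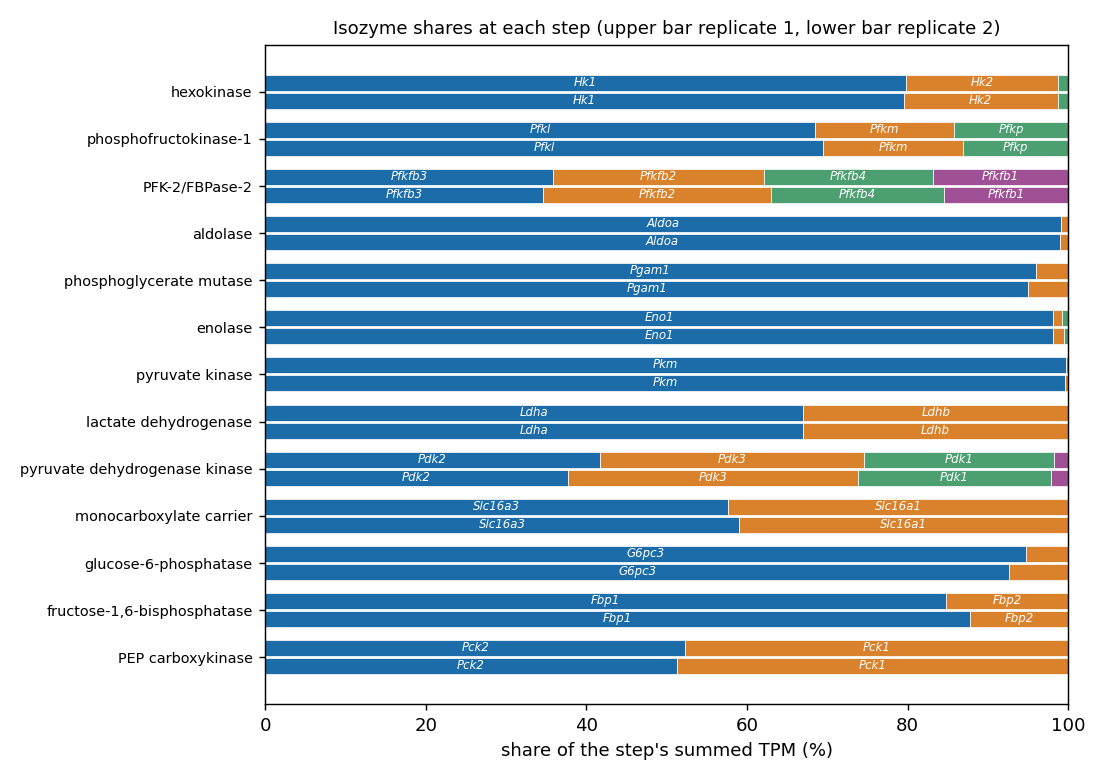
Share of each member in the summed TPM of its step, in percent, with replicate 1 as the upper and replicate 2 as the lower bar of each step. Segments run from the highest member on the left. A single colour fills nearly the whole bar for aldolase, phosphoglycerate mutase, enolase and pyruvate kinase, while the PFK-2/FBPase-2 and pyruvate dehydrogenase kinase families are split among several genes.

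At the fate of pyruvate, both lactate dehydrogenase subunits were abundant, in nearly the same proportion in both libraries. Ldha, the subunit of muscle-type tetramers, stood at 1472 TPM in replicate 1 and 1632 TPM in replicate 2. Ldhb, the subunit of heart-type tetramers, stood at 725 TPM in replicate 1 and 805 TPM in replicate 2. Ldha took 67.0% of the sum in both libraries. The log2 ratio of Ldha over Ldhb was 1.02 ± 0.001, the smallest spread among the 29 isozyme pairs without copies added. With the near-identical pseudogene copies described below added, the log2 ratio was 0.99, a move larger than that SD. Of the carriers that move lactate and pyruvate across the plasma membrane, Slc16a3 (MCT4, the exporter of glycolytic cells) stood at 54.2 and 53.1 TPM and Slc16a1 (MCT1) at 39.9 and 36.9 TPM. Slc16a3 was higher by 0.48 ± 0.06 on the log2 scale. That order rests on the length scaling, since Slc16a1 had more expected counts, 3962 and 3985, than Slc16a3 with 2530 and 2736. Pdha1, the E1 alpha subunit of the pyruvate dehydrogenase that feeds pyruvate to the citric acid cycle, stood at 123 and 138 TPM.

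Pyruvate dehydrogenase kinases switch that complex off, and 3 of the 4 lay between 38.7 and 69.8 TPM. Pdk2, the most widespread form, stood at 69.8 and 60.7 TPM, Pdk3 at 55.1 and 58.1 TPM and Pdk1, a target of hypoxia-inducible factors, at 39.7 and 38.7 TPM. Pdk4, the kinase induced by fasting, stood at 2.97 and 3.46 TPM, or 1.77% and 2.15% of the family. Pdk2 over Pdk3 came to 0.20 ± 0.20 on the log2 scale with overlapping deposited bounds, so their order is not settled. Non-coding models held 49.1% and 48.6% of Pdk1 TPM. With coding transcripts alone Pdk1 stood at 20.2 and 19.9 TPM, and the log2 ratio of Pdk2 over Pdk1 was 1.51 ± 0.06, against 0.73 ± 0.12 with all transcripts.

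The promoters of the lactate dehydrogenase pair are shown because their ratio, without copies added, differed least between the libraries. Each sequence is the 250 bases before a RefSeq start site (GRCm38.p6), 5′ to 3′ on the strand of the gene. Capitals mark ACGTG on either strand (CACGT on the other), a form of the core letters of the element bound by hypoxia-inducible factors. The other form, GCGTG, was not searched for or marked. Overlapping matches, as in the palindrome CACGTG, count as 1 place. The Ldha window (chr7:46845554-46845803, plus strand) lies before the start that carries 99.0% of Ldha TPM in both libraries and holds 3 such places. The Ldhb window (chr6:142507958-142508207, minus strand) holds no ACGTG, but it does contain the unmarked form GCGTG.
Ldha, 250 bases before the start: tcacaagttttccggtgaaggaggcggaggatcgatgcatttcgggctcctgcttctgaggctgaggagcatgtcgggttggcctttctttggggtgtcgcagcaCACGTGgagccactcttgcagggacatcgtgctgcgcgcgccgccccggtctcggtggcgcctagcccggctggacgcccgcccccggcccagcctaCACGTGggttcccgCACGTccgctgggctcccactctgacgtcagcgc
Ldhb, 250 bases before the start: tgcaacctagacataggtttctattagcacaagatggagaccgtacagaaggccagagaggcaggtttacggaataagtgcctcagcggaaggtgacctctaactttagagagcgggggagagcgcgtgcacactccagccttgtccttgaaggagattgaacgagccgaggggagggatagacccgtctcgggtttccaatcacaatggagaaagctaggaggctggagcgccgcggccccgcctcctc

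Over the members, 21 of 63 RefSeq windows of this length held ACGTG on either strand (33.3%, in 17 members), against 16.6% of 32851 windows of all genes. The member windows also had a median of 10 CG dinucleotides, against 6 in all windows, and the motif contains CG. GTTAAT on either strand, from the element bound by HNF1 factors, was in 6.35% of member windows (those of G6pc, Pck1, Pdha1 and Pfkfb1), against 6.43% of all windows. TATAAA on either strand was in 7.94% of member windows, against 12.4% of all windows. These are matches of letters and not sites of binding.

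The enzymes of gluconeogenesis were all detected, at levels from a few TPM to over 100 TPM. Pcx, pyruvate carboxylase, makes oxaloacetate in mitochondria and stood at 43.5 and 53.0 TPM. PEP carboxykinase was divided almost evenly: Pck2, the mitochondrial form, stood at 31.8 and 33.9 TPM and Pck1, the cytosolic form, at 29.0 and 32.2 TPM. Their log2 ratio was 0.10 ± 0.04, and they were the only pair of the 29 whose TPM ranges overlapped. Fbp1, the fructose bisphosphatase of liver and kidney, stood at 108 TPM in replicate 1 and 177 TPM in replicate 2, and Fbp2, the muscle form, at 19.5 and 24.8 TPM. At the last step, G6pc3, the ubiquitous phosphatase, stood at 40.9 and 38.6 TPM, and G6pc, the catalytic subunit of liver and kidney that releases glucose, at 2.28 and 3.05 TPM on 121 and 176 expected counts. G6pc3 was thus higher by 3.86 ± 0.34 on the log2 scale and took 94.7% and 92.7% of the step. Slc37a4, the carrier that brings glucose 6-phosphate into the endoplasmic reticulum, stood at 49.96 and 58.4 TPM.

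Pcx TPM was divided between transcripts from 2 annotated starts, and the promoter windows are shown because neither start led in both libraries. The upstream start, that of Pcx-201, took 50.9% and 48.6% of Pcx TPM, and the downstream start, that of Pcx-202, 49.1% and 51.5%. The deposited bounds overlapped in replicate 1, from 17.8 to 25.7 TPM for Pcx-201 and from 16.6 to 24.5 TPM for Pcx-202. In replicate 2 they overlapped again, from 19.5 to 31.6 TPM and from 20.2 to 32.4 TPM. The windows are chr19:4510222-4510471, plus strand, and chr19:4594069-4594318, plus strand, and capitals again mark ACGTG on either strand. The upstream window holds 2 places and 16 CG dinucleotides, and the downstream window holds no place and 4 CG dinucleotides.
Pcx upstream, 250 bases before the start: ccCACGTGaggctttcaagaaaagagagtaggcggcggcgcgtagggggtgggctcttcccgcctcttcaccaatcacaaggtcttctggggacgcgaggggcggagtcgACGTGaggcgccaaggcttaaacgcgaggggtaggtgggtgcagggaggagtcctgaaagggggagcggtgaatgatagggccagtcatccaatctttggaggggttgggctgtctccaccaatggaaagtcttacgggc
Pcx downstream, 250 bases before the start: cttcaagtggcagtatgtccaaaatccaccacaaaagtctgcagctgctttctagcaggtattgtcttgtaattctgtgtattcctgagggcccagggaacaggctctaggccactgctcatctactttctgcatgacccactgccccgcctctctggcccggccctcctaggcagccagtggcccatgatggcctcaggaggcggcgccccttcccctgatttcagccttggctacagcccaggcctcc

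Set against the glycolytic enzymes they oppose, the gluconeogenic enzymes were lower at each of the 3 bypass steps, by very different amounts. For glucose and glucose 6-phosphate, G6pc and G6pc3 summed to 43.2 and 41.7 TPM, against 70.1 and 71.4 TPM for the hexokinases (log2 ratio -0.74 ± 0.05). For fructose bisphosphate, Fbp1 and Fbp2 summed to 128 TPM in replicate 1 and 202 TPM in replicate 2, against 216 and 218 TPM for the phosphofructokinases. The fructose bisphosphatases thus came to 59.1% of the phosphofructokinases in replicate 1 and 92.6% in replicate 2, and the log2 ratio of -0.43 ± 0.46 had an SD as large as itself. At phosphoenolpyruvate, Pck1 and Pck2 summed to 60.7 and 66.2 TPM, against 1158 and 1202 TPM for the pyruvate kinases, or 5.24% and 5.50% of them (log2 ratio -4.22 ± 0.05). At the glucose step the gluconeogenic sum is nearly all G6pc3, which is not restricted to tissues that release glucose. G6pc alone came to 2.28 and 3.05 TPM.

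**Figure D4:**
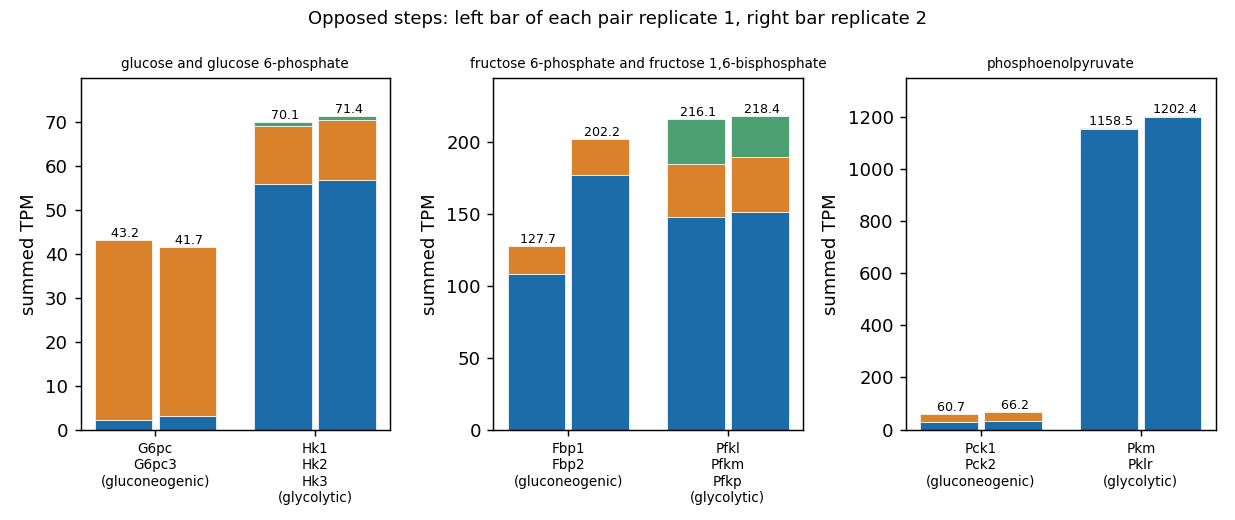
Summed TPM of the gluconeogenic and glycolytic members at the 3 opposed steps, with replicate 1 as the left and replicate 2 as the right bar and the genes stacked from the bottom in the order of the axis labels. The gluconeogenic bars are lower in every panel, least so for the fructose bisphosphatases in replicate 2.

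Across steps, the isozyme with the highest TPM over all transcripts was the same in both libraries at all 13 steps with several members (33 members). It held over 90% of the step in both libraries at 5 of them. With coding transcripts alone the leading pyruvate dehydrogenase kinase changed. Pdk2 over Pdk3 was then 0.11 on the log2 scale in replicate 1 and -0.08 in replicate 2. Of the 29 isozyme pairs, 28 had TPM ranges that did not overlap. Among the 27 pairs with both genes detected, 26 did not overlap (96.3%), against 95.8% of all pairs of detected protein-coding genes, so the members' order was about as repeatable as that of other genes. By the deposited bounds 25 pairs were apart. The exceptions were Pfkm and Pfkp, Pfkfb4 and Pfkfb1, Pdk2 and Pdk3, and Pck2 and Pck1.

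Between the pools, most members differed little. On TMM-scaled expected counts, 0 of 40 members were over 1.5-fold higher in replicate 1 (3.85% of 15363 genes were) and 1 was over 1.5-fold lower (2.03% of genes were). That member was Fbp1, with 3088 expected counts in replicate 1 and 5414 in replicate 2, a ratio of replicate 1 over replicate 2 of 0.624. A larger difference in either direction was seen in 4.59% of all genes. The median member log2 ratio was -0.07, against 0.00 for all genes, and 31 of the 40 members were lower in replicate 1, against 49.9% of all genes. With the spike-in RNAs as the scale, the median of all genes moved to -0.43 and that of the members to -0.50. On that scale 13 of the 40 members were over 1.5-fold lower in replicate 1, against 16.0% of all genes.

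After Fbp1, the members furthest below their replicate 2 level in replicate 1 were G6pc, Pgam2, Aldoc, Pgk1 and Fbp2. G6pc was at 0.755 of its replicate 2 level in replicate 1, Pgk1 at 0.783, Pcx at 0.827 and Slc37a4 at 0.862. All 8 proximal tubule markers and all 6 liver markers were lower in replicate 1 too, with sums of 411.6 and 476.3 TPM and of 150.1 and 184.3 TPM. Fbp1 differed more than either sum. Among muscle isozymes, Pgam2 was at 0.758, Fbp2 at 0.792 and Eno3 at 0.864 of the replicate 2 level in replicate 1. Of the 7 skeletal muscle markers, 6 were lower in replicate 1, and Acta1, with most of the difference in their sum, stood at 48.3 TPM in replicate 1 and 138.7 TPM in replicate 2. Eno2 went the other way, 1.32-fold higher in replicate 1, and of the 6 markers of neurons and glia 1 was lower there. Stmn2 stood at 14.1 TPM in replicate 1 and 9.25 TPM in replicate 2. Aldoc, the other brain form, was at 0.776. The part of these cell types in the ratios was not tested.

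**Figure D5:**
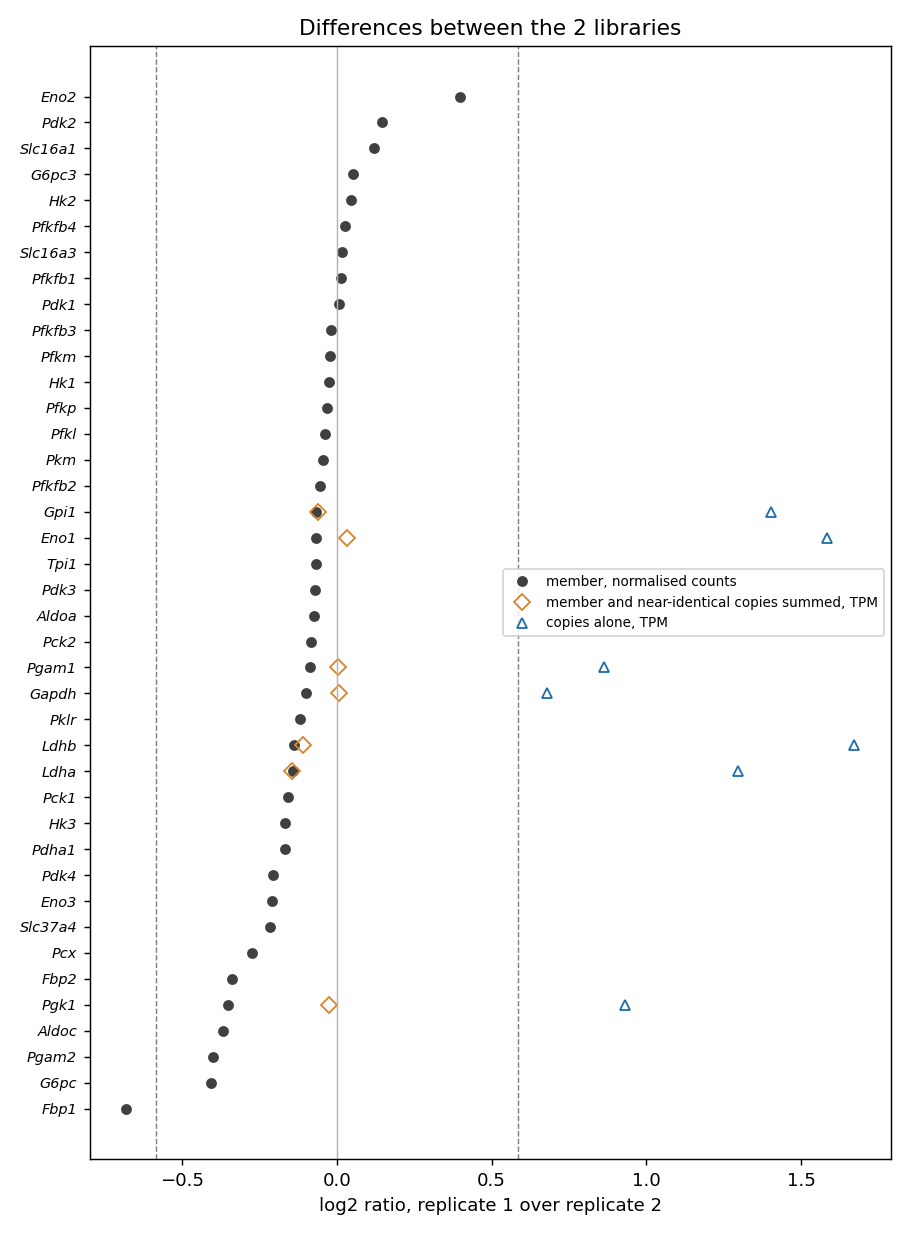
The log2 ratio of replicate 1 over replicate 2 for each member on normalised counts (filled circles), with dashed lines at 1.5-fold. For the 7 members whose near-identical copies were listed above 0 TPM in replicate 1, diamonds give the TPM ratio of the member and its copies summed, and triangles that of the copies alone. Fbp1 alone lies past the left line, all triangles lie to the right of 0.6, and the Pgk1 diamond lies near 0.

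Near-identical copies, which can share reads with the parent gene, were found for 9 of the members, and most of those with a sizeable level were listed higher in replicate 1. A copy is here a gene whose transcript matches a member's at 95% identity or more over at least 50% of the shorter one. Copies were searched for the members only, so no share over all genes is given. Pgk1-rs7, a processed pseudogene of Pgk1, was listed at 127.8 TPM in replicate 1 and 67.0 TPM in replicate 2, which was 54.0% and 22.0% of Pgk1. Pgk1 and its copies together stood at 364 and 371 TPM, so that the log2 ratio of -0.36 for Pgk1 alone became -0.03. Pgam1-ps2 was listed at 102.6 and 56.3 TPM. Gm4735, a copy of Eno1, was listed at 175.7 and 57.5 TPM, and Eno1b at 19.9 and 7.76 TPM. The 96 copies of Gapdh summed to 230.8 and 144.0 TPM, or 13.7% and 8.19% of Gapdh, led by Gm5559 with 36.7 and 14.1 TPM and Gm10359 with 30.3 and 11.9 TPM. Gm5514, a copy of Ldhb, was listed at 28.6 and 8.91 TPM. Of 13 copies with a mean of 5 TPM or more, 12 were over 1.5-fold higher in replicate 1. Of all 369 processed pseudogenes that entered, 64.8% were over 1.5-fold higher in replicate 1. How the quantifier divided shared reads was not tested. The levels of these copies, and the part of a member's difference that equals their change, are therefore uncertain.

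The choice of transcript was mostly the same in both libraries. Of 31 detected members with several transcripts, 3 had a different leading transcript in the 2 libraries, against 8.46% of 10194 genes. They were Pcx, described above, Pfkm and Slc16a3. Pfkm-202 stood at 21.3 TPM in replicate 1 and 18.8 TPM in replicate 2, and Pfkm-201 at 15.9 and 19.2 TPM, with deposited bounds that overlapped in both libraries. Slc16a3-201 stood at 27.3 and 20.0 TPM and Slc16a3-202 at 18.2 and 24.3 TPM, again with overlapping bounds in both libraries. The leading transcript was non-coding for Hk2, Gapdh and Eno2, and non-coding models held over 20% of TPM in both libraries for these and for Pfkfb2 and Pdk1. Shares over all genes are not given for these 2 traits.

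Other genes of these pathways completed the picture. Of 42 listed, 36 were detected. The median over the list was 32.1 and 35.2 TPM. Among the highest were Bsg, the chaperone of the monocarboxylate carriers, with 781 and 880 TPM, and the malate dehydrogenases Mdh1 with 661 and 729 TPM and Mdh2 with 557 and 577 TPM. The lowest were Pgk2, the testis form of phosphoglycerate kinase, at 0 counts in both libraries, and Pdha2, the testis form of the E1 alpha subunit, at 0.04 and 0 TPM.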

How the data were processed

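Per the labels' protocols, RNA longer than 200 nt was isolated by mirVana and each of the 2 libraries started from 10 ng. The deposited text notes name mm10 and GENCODE M4. The aligner was not given in the sources used here, nor were the quantifier and the strandedness. The authors deposited a gene and a transcript table per library. These hold expected counts (estimated, not always whole), TPM and FPKM scaled by the authors to length and library, and the percent of each transcript within its gene. The deposited posterior mean TPM and lower and upper TPM bounds are signal values whose level is not stated, and 11 members had a point TPM outside its bounds. Spike-ins took 2.82% of the deposited counts in replicate 1 and 2.08% in replicate 2, and only mouse genes entered library sizes.

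The members, steps and lists were chosen with earlier results of these data known. All 40 members are named, with the highest and the 2 lowest other pathway genes and up to 2 copies per member. Some genes that this rule takes are left out of the text and are not reported here. Names came by stable identifier from GENCODE M21 (42462 of 43346 genes matched), whose models can differ from M4, and promoters from RefSeq tables on GRCm38.p6; 27 of 28 windows that could be checked matched a transcript's first bases, and starts were assigned within 100 nt. Log2 ratios of isozymes are of TPM with a pseudocount of 0.1, which understates changes of genes near 0. Ratios between pools used rounded expected counts, TMM in edgeR 4.0.16 (R 4.3.3), prior count 2 and a floor of 1 CPM on the mean; DESeq2 1.42.0 size factors were an alternative. The code was tested on simulated counts. Copies were found with BLAST 2.17.0, and tables used Python 3.11.15 with pandas 2.3.3, numpy 2.4.6 and matplotlib 3.10.9. Alternatives covered units, thresholds, pseudocounts, scalings, leaving out a library and, chosen after seeing the data, coding transcripts alone. The labels call the libraries biological replicates, and spreads over 2 libraries are imprecise.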

Additional observations from a re-analysis of the deposited data

How the results depend on the processing

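No paired analysis was possible because the samples form 1 group. Most results kept their direction under the alternatives run. The count of detected members ranged from 35 to 40, that of pairs apart from 25 to 29, and that of members with a changed leading transcript from 3 to 4. Leaving out a library gave 39 to 39 detected members, an M2 share of 95.01 to 95.4%, and log2 ratios of gluconeogenic over glycolytic enzymes of -0.78 to -0.70 (glucose), -0.76 to -0.11 (fructose bisphosphate) and -4.25 to -4.18 (phosphoenolpyruvate). Replicate 2 thus decides how close Fbp comes to Pfk. Pairs apart have no value with 1 library. With coding transcripts alone, chosen after seeing the data, the glucose step moved to -0.64 and 26 pairs were apart, the exceptions being Pfkfb2 and Pfkfb1, Pdk2 and Pdk3, and Pck2 and Pck1. With spike-in scaling 13 members were over 1.5-fold, all lower in replicate 1, against 16.0% of all genes. At 2-fold there were 0, with edgeR ratios and no test behind them. Of 261 alternative pair ratios, 194 moved by less than their SD, 63 by more, and 4 reversed. Part of the 194 was fixed in advance and shows no stability. Leaving out 1 of 2 libraries always moves a mean by less than the SD. Adding copies cannot move a pair in which neither gene has a copy. FPKM is proportional to TPM within a library, so it can move a pair ratio only through the pseudocount. Pfkfb2 over Pfkfb4 reversed with coding transcripts alone (-0.44). With expected counts that are not scaled to length, Pdk2 over Pdk1 (-0.18), Pdk3 over Pdk1 (-0.33) and Slc16a3 over Slc16a1 (-0.59) reversed. Depth limits Hk3, G6pc, Pfkfb1 and Pklr the most, and with 2 libraries each SD is itself uncertain.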

Other observations

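Without known strandedness, reads from genes on opposite strands cannot be told apart. The span of 16 of the 40 members overlaps that of a gene on the other strand, and the share over all genes is not given here. Pitrm1, opposite Pfkp, had the highest level of these, with 80.1 TPM in replicate 1 and 78.7 TPM in replicate 2. Senp1, opposite Pfkm, stood at 25.5 and 25.0 TPM, and Unc5a, opposite Hk3, at 2.11 and 2.31 TPM.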
